A study of Danio rerio with 12 samples.

Results

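Solute carriers are the membrane proteins that move small molecules, such as amino acids, sugars, ions, metals and neurotransmitters, across the cell surface and across the membranes of organelles. They were taken here as every probe set whose only gene symbol begins with slc, except those of the slc24a exchangers, with slc38a4 among them. The rule found 159 probe sets of 138 genes among the 15502 probe sets of the array other than controls. A probe set is a group of short oligonucleotides on the array that reports 1 transcript, and 18 of the genes had more than 1. The rule goes by name alone, so it also takes slc4a1ap and slc7a6os, which are named after a neighbouring or interacting transporter and are not transporters themselves.

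The RNA on the 12 Affymetrix arrays came from the pineal gland of zebrafish of the Tg(aanat2:EGFP)Y8 line, adults of 0.5 to 1.5 years, males and females together. In this line the pineal gland fluoresces green, because regulatory regions of aanat2 drive EGFP there, and the fish of all 12 arrays carry that transgene. The fish had been raised in cycles of 12 h light and 12 h dark and were sampled in constant darkness, every 4 h for 48 h from circadian time (CT) 14, where CT0 and CT12 are the former times of lights on and lights off. Each array holds 1 pool of 12 glands, whose RNA was amplified in 2 rounds. The groups are thus the 6 sampled times of day, with 1 array in each of 2 daily cycles, and no other treatment or genotype was compared. A pool is an extract of the whole gland, in which fewer cells of a type and less RNA per cell cannot be told apart.

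The pineal gland of the zebrafish contains photoreceptor cells that hold their own circadian clock and release melatonin at night. Transporters set what such a cell can take up for its work, for instance the amino acids from which it makes indoles and transmitters, the glucose and monocarboxylates that it burns, and the ions that carry its currents. Families are numbered by sequence: the SLC1 and SLC6 families take up transmitters and amino acids, SLC2 takes up sugars, SLC25 lies in the mitochondrial inner membrane, SLC30 and SLC39 move zinc in opposite directions, and SLC38 takes up neutral amino acids together with sodium.

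Some arrays stood apart before any solute carrier was considered. The hybridization controls, spiked into each sample, averaged 837 to 1314 in intensity on each of the last 4 arrays, those from CT22 onward in the second cycle, against 515 to 728 on the other 8. The CT6 array of the second cycle had the lowest mean correlation with the others (r = 0.814). On that array the 9 measured skin markers summed to an intensity of 17945, against 953 to 9048 on the 11 others. The 9 measured markers of bone and connective tissue summed to 18960 there, against 1485 to 10368 elsewhere, and the 8 immune markers to 17423, against 2298 to 7777. The 10 measured markers of pineal photoreceptors, of 14 listed, were present on every array, and summed to 18951 on that CT6 array, against 26467 to 37375 elsewhere. The 10 neuronal markers summed to 19367 to 23248 on the CT14, CT18 and CT2 arrays of the second cycle, and to 8769 to 14685 on the 9 others. No measured marker was listed at 0.

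Of the 159 solute carrier probe sets, 117 (73.6%) had a highest value outside the lowest 25% and were tested, beside 75% of all probe sets, and they stand for 108 genes. The 42 others had intensities between 1.0 and 63.8 and include slc6a3, the dopamine transporter, slc2a2, a glucose transporter of liver and pancreas, and slc6a19a.1 and slc6a19b, transporters of neutral amino acids in gut and kidney. Whether these lie above background is not known, since the deposited table has no detection calls.

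slc38a4 encodes a sodium-coupled transporter of neutral amino acids, known in mammals as SNAT4. Its intensity was 237.9 at CT14, 587 at CT18, 303.2 at CT22, 108.8 at CT2, 108.8 at CT6 and 114.1 at CT10 in the first cycle, and 174.4, 418.5, 335.5, 198.5, 108.2 and 84.4 at these times in the second. Both cycles had their highest value at CT18 and their second highest at CT22, and the 6 arrays of CT14 to CT22 lay above all others except the CT2 array of the second cycle, which was above the CT14 array of that cycle. By circadian time the mean was 206 ± 44.9 at CT14, 503 ± 119 at CT18, 319 ± 22.9 at CT22, 154 ± 63.5 at CT2, 109 ± 0.439 at CT6 and 99.2 ± 21.0 at CT10 (SD, n = 2 each).

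A 24-h cosine fitted to the 12 log2 values of slc38a4 had a peak 4.92-fold over its trough, with the peak at CT19.2 ± 0.474 h (SE). In limma the rhythm had an adjusted p of 0.0063 over all 11624 probe sets. The g-factor, the share of the variation over time that lies in the 24-h component, was 0.874, which ranked 16 among the 11624. The gene was included with its rhythm on these arrays already known, so these values are a description and not a new test. Fitted on each cycle alone, the fold was 4.86 in the second cycle and 5.55 in the first, and the peak lay at CT20.2 in the second and at CT18.3 in the first. This difference between the cycles had an adjusted p of 0.764 in limma. The profile of slc38a4 had r = 0.450 with the mean of the neuronal markers, 0.187 with that of the photoreceptor markers and -0.032 with that of the skin markers over the 12 arrays, and without the CT6 array of the second cycle its fold was 5.37 (adjusted p = 0.0048, limma). With circadian time as 6 separate levels in place of the cosine, the adjusted p of slc38a4 was 0.113 in limma.

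**Figure D1:**
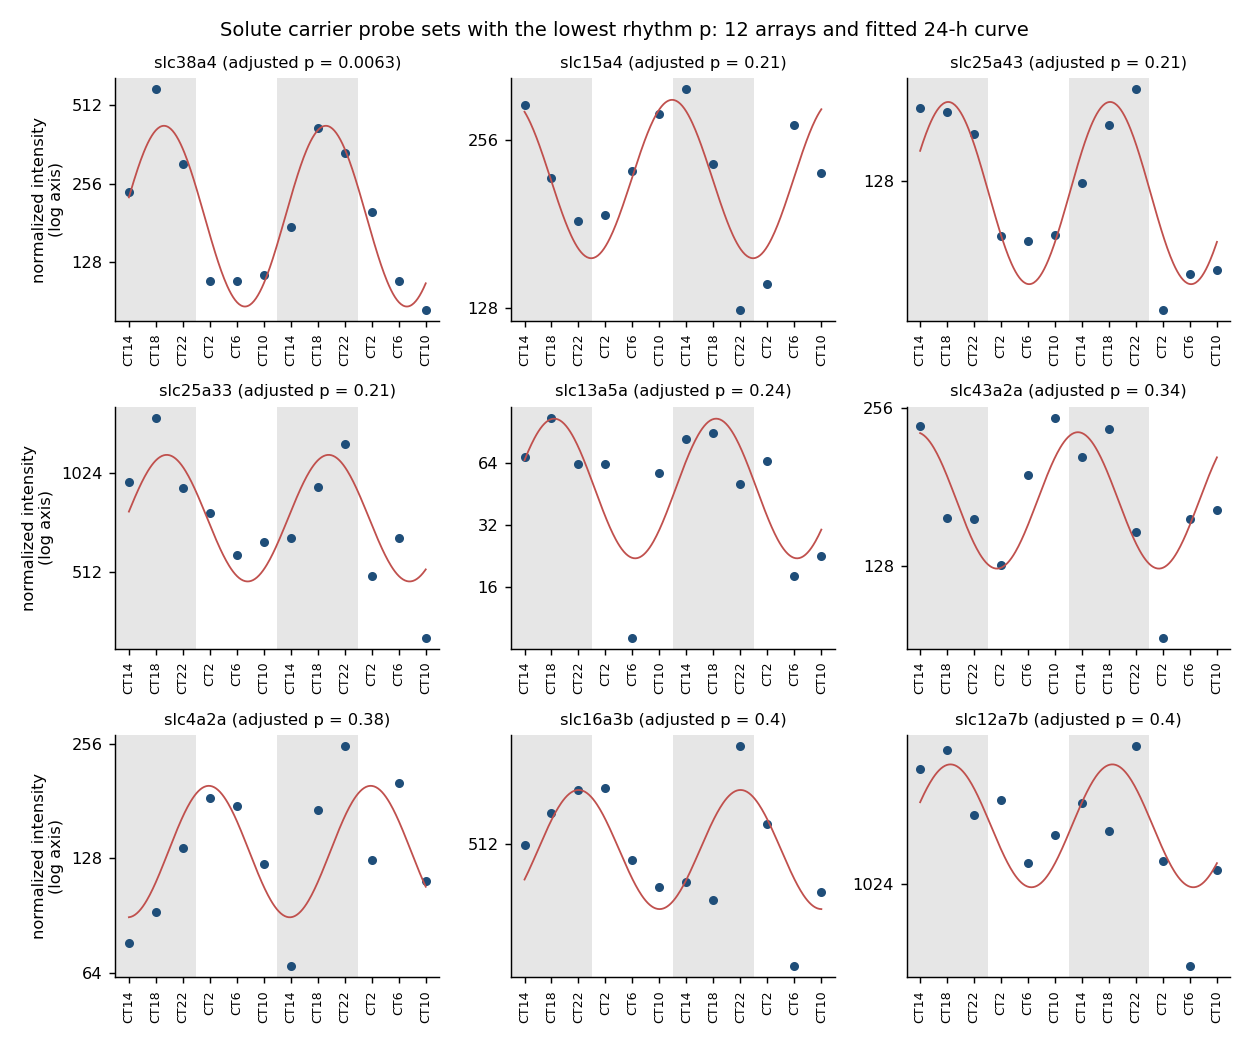
Normalized intensity (log axis) of the 9 solute carrier probe sets with the lowest rhythm p on the 12 arrays in sampling order, as points, with the fitted 24-h curve as a line; grey marks the former night (CT12 to CT24). slc38a4 repeated its CT18 maximum in both cycles, at 587 and 418.5, and was the only one of the 9 to pass the test.

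The probe sets whose 12 values followed those of slc38a4 most closely, among all with 1 gene symbol, included known clock genes. The highest Pearson correlations were those of tob1b (r = 0.941), a gene of the antiproliferative BTG/Tob family, and anxa4 (r = 0.925), an annexin. Among those that followed were ciarta (r = 0.916) and bhlhe41 (r = 0.909), both repressors within the clock, and cry2 (r = 0.857), a cryptochrome. bzw2, rims2a, mef2d and rasgef1ba were also among the 10 closest, with r between 0.848 and 0.856. These genes were picked for their likeness to slc38a4, so fitted peaks near its own follow from the choice. The peaks lay between CT18.3 for mef2d and CT20.2 for cry2. Of those named, tob1b, ciarta, bhlhe41 and cry2 passed the rhythm test (adjusted p of 0.00026 to 0.042, limma). anxa4, bzw2, rims2a, mef2d and rasgef1ba did not (adjusted p of 0.0998 to 0.628, limma). These 12 points share their arrays, pools and normalization, so the values of r are given without a p. The solute carriers nearest to slc38a4 were slc25a33 (r = 0.822) and slc25a43 (r = 0.801), then 1 probe set of slc30a9 (r = 0.678) and slc13a5a (r = 0.668), and the one with the lowest correlation was slc26a11 (r = -0.664).

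Over all solute carriers, 1 of 117 probe sets passed the rhythm test at a false discovery rate of 0.05 in limma, namely slc38a4, a share of 0.855%. The same fit called 60 of 11624 probe sets, or 0.516%. At an unadjusted p under 0.05 there were 15 of the 117 (12.8%), beside 10.1% of all probe sets tested. A g-factor of 0.5 or above was reached by 14 of the 117 (12%), beside 9% of all. These shares lie close to the background. The median fitted fold was 1.52 for the solute carriers and 1.40 for all probe sets tested, and the median g-factor was 0.222 and 0.191. A fold of 2 or more was fitted to 16 of the 117 (13.7%), beside 15.2% of all.

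The fitted peaks of the 117 were spread over the day. The sampled time nearest to the peak was CT18 or CT22, the times of highest slc38a4, for 37 of them (31.6%), beside 32.9% of all probe sets tested. Taken singly, it was CT14 for 28 of them (23.9%), beside 16.6% of all probe sets tested, CT18 for 21, CT22 for 16, CT2 for 17, CT6 for 13 (11.1%, beside 14.7%) and CT10 for 22. Among the 15 with an unadjusted p under 0.05, the nearest time was CT18 for 6 (40%, beside 16.9% of the 1178 of all probe sets at that threshold). slc38a4 itself is 1 of these 6. It was CT22 for 1 (6.67%, beside 19.3%), CT2 for 4 (26.7%, beside 18.7%) and CT6 for 0 (0%, beside 11.4%). CT14 and CT10 had 2 each (13.3%, beside 16% and 17.8%). These few counts were not tested. A peak time of a curve that did not pass the test is only where that curve happens to be highest.

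**Figure D2:**
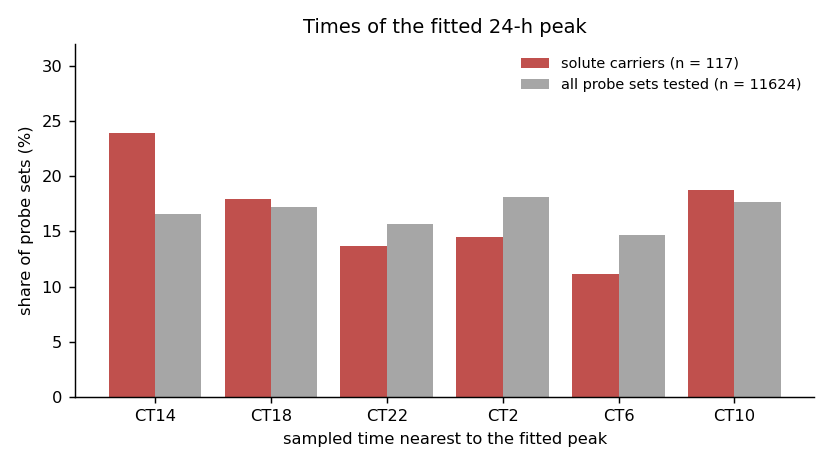
Share of tested probe sets (percent) whose fitted 24-h peak lies nearest to each sampled circadian time, for the 117 solute carriers (red, left of each pair) and all 11624 probe sets (grey, right). The widest gap is at CT14, with 23.9% of the solute carriers and 16.6% of all.

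By role, each class held few members past even the unadjusted threshold. The largest shares were 2 of 5 monocarboxylate carriers (40%), 3 of 13 amino acid transporters outside SLC1 (23.1%) and 4 of 22 mitochondrial carriers (18.2%). Of all probe sets, 10.1% passed it. The SLC6 and vesicular, SLC1, sugar, nucleotide sugar and fatty acid classes had 0. These counts were not tested. The classes with the highest median fold were the SLC6 and vesicular transporters (2.01, 5 tested), the monocarboxylate carriers (1.84, 5 tested) and those of organic anions, vitamins and nucleosides (1.80, 10 tested). The lowest were the fatty acid and acetyl-CoA transporters (1.20, 3 tested) and the nucleotide sugar transporters (1.34, 8 tested), with the 2 slc-named genes that are no transporters at 1.21. In between lay the amino acid transporters outside SLC1 (1.66, 13 tested), the SLC1 family (1.66, 3 tested), the ion and pH transporters (1.52, 19 tested), the sugar transporters (1.50, 9 tested), the mitochondrial carriers (1.47, 22 tested) and the metal transporters (1.47, 17 tested). The median of the SLC6 and vesicular class is the fold of slc18a3a, whose g-factor was 0.0865. slc18a3a passed the filter on low values only through the CT18 and CT2 arrays of the second cycle. It was at 126.5 and 66.2 there, against 8.2 to 32.6 elsewhere. The place of this class in the order is therefore given as a description.

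**Figure D3:**
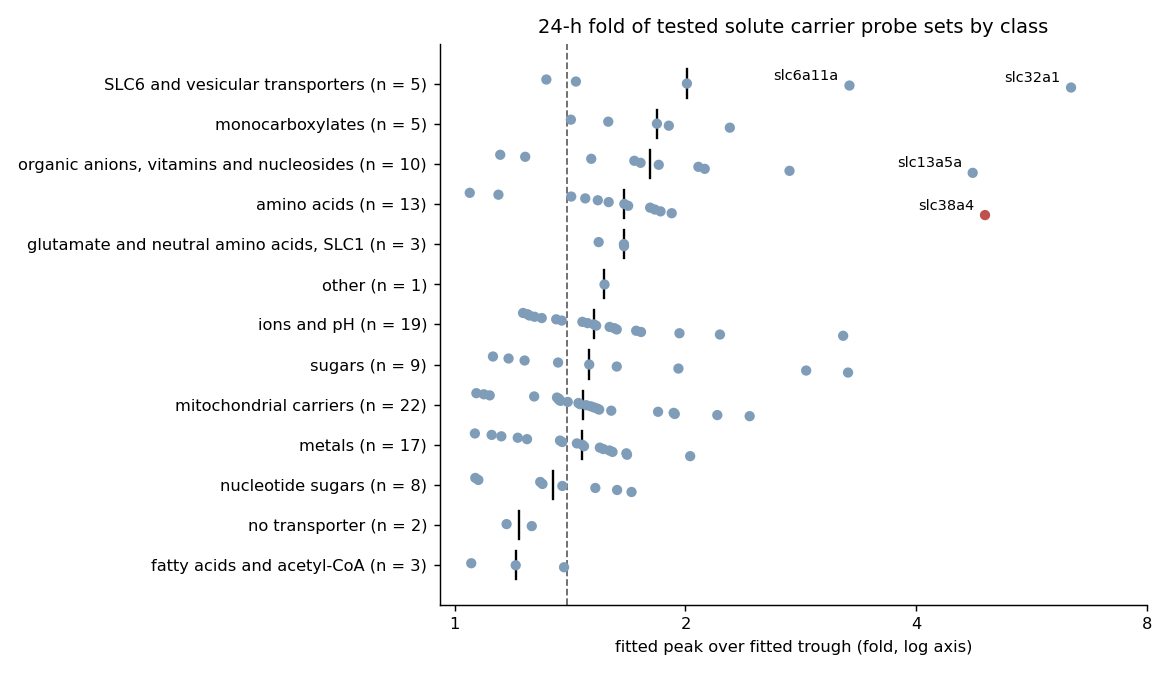
Fitted peak over trough (fold, log axis) of the 117 tested solute carrier probe sets by class, with the class median as a black bar and the median of all probe sets tested (1.40) as a dashed line. slc38a4 (red) is the only one past the rhythm test, while slc32a1 has the largest fold, 6.36, without passing it.

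Among the amino acid transporters, slc15a4, a carrier of histidine and small peptides in endosomes and lysosomes, had the second lowest p of all members. Its intensity was 296.2, 218.6, 183.7, 188, 225.5 and 285.1 in the first cycle, in the order of sampling from CT14, and 315.2, 232.3, 127.4, 141.4, 272.2 and 223.2 in the second. Both cycles were highest at CT14 and lowest at CT22, a phase away from that of slc38a4, and the fold was 1.92 with the peak at CT11.9 (adjusted p = 0.206, limma, g-factor 0.721). slc43a2a, a transporter of large neutral amino acids, had a fold of 1.82 with the peak at CT13.4 (adjusted p = 0.345, limma), and ranged from 93.1 to 245.6 with a median of 161.

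slc3a2a and slc3a2b encode copies of the heavy chain that carries SLC7 amino acid exchangers to the cell surface. slc3a2a was at 1101.1 and 1343.8 on the CT14 and CT10 arrays of the first cycle and at 1130.9 and 840 on those of the second, against 400 to 846 on the 8 others. slc3a2b had 4831.9 and 4597.2 at these times of the first cycle and 4787.6 and 3743 in the second. The profiles of the copies correlated (r = 0.826), and neither passed the rhythm test (adjusted p = 0.534 for slc3a2a and 0.605 for slc3a2b, limma). slc38a2, the SNAT2 relative of slc38a4, had its fitted peak at the same hour, CT19.2, but a fold of only 1.59 and an adjusted p of 0.678 (limma).

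In the mitochondrial family, slc25a43, a carrier whose substrate is not settled, gave 166.7, 164.4, 151.9, 104.8, 103.1 and 105.4 in the first cycle, in the same order, and 127.2, 156.5, 178.2, 80.5, 91.6 and 92.8 in the second. All 6 arrays of CT14 to CT22 lay above all 6 of CT2 to CT10. The fold was 1.93 with the peak at CT18.2, the g-factor 0.769 and the adjusted p 0.206 (limma).

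slc25a33, a carrier of pyrimidine nucleotides, gave 964.8, 1507.6, 923, 774.6, 579.2 and 632.9 in the first cycle and 649.9, 932.3, 1256.9, 498.2, 650.6 and 323.1 in the second. Its maximum fell at CT18 in the first cycle and at CT22 in the second, and the fold was 2.43 with the peak at CT19.6 (adjusted p = 0.214, limma). slc25a37, the mitochondrial iron importer mitoferrin, was highest at CT2 of the first cycle with 117.4 and at CT22 of the second with 89.4, and had a median of 49.8 and an adjusted p of 0.486 (limma).

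slc13a5a, a sodium-coupled citrate transporter, had a fold of 4.74, close to that of slc38a4, but with a wide spread. Its intensity was 68.1, 105.6, 63.3, 63.2, 9.1 and 57.4 in the first cycle and 83.9, 88.8, 50.4, 65.4, 18.2 and 22.8 in the second. CT18 was the highest time of both cycles and CT6 the lowest, the peak lay at CT18.4, and the adjusted p was 0.243 (limma). Its fold was 2.25 with an offset of 32 added before the logarithm. It lay above 63.8, the highest value of any removed solute carrier, only at CT14, at CT18 and on the CT2 array of the second cycle. Its rhythm values are therefore given as a description.

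Monocarboxylate carriers move lactate and related acids. slc16a3b, a lactate exporter of glycolytic cells in mammals, ranged from 274.4 to 842.9, with the peak at CT22.0 and a fold of 1.84 (adjusted p = 0.395, limma). Its highest value was at CT2 in the first cycle (682) and at CT22 in the second (842.9), and without the CT6 array of the second cycle, its lowest, the fold was 1.72 (adjusted p = 0.213, limma). The paralogs slc16a9a and slc16a9b had folds of 1.90 and 1.59, peaks at CT16.2 and CT14.6 and adjusted p of 0.458 and 0.504 (limma), and correlated with each other at r = 0.471.

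Of the ion transporters, slc12a7b, a potassium-chloride cotransporter, was at 1613.4, 1742.4 and 1347.3 at CT14, CT18 and CT22 of the first cycle, and at 1409.8, 1265.1 and 1766.3 in the second, against 739 to 1427 on the arrays of CT2, CT6 and CT10. Its fold was 1.63 with the peak at CT18.5 (adjusted p = 0.399, limma), and its lowest value was on the CT6 array of the second cycle, without which the fold was 1.41 (adjusted p = 0.426). slc12a3, the sodium-chloride cotransporter known from the kidney, had a fold of 3.21 with the peak at CT3.34 (adjusted p = 0.422, limma) but only 9.2 to 92.8 in intensity. It lay above 63.8, the highest value of any removed solute carrier, only on the CT2 and CT6 arrays of the first cycle. Its rhythm values are therefore given as a description. Its other probe set stayed at or below 26.1 and was not tested.

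Metal transporters gave 2 members of 17 tested (11.8%) with an unadjusted p under 0.05, close to the 10.1% of all probe sets. slc30a5 and slc30a6 encode proteins that form a heteromeric zinc transporter of the early secretory pathway. slc30a6 had its peak at CT2.18 (fold 1.56, range 312 to 561, adjusted p = 0.445, limma), and slc30a5 had its peak at CT13.9 (fold 1.68, range 61.1 to 147.9, adjusted p = 0.445, limma). The fitted peaks thus lay nearly opposite in the day, though neither rhythm passed the test.

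For nucleotide sugars, slc35d1a, which brings precursors of glycosaminoglycans into the endoplasmic reticulum, had a g-factor of 0.760 with a fold of 1.63 and the peak at CT12.6 (range 41.2 to 76.7, adjusted p = 0.502, limma). It lay above 63.8, the highest value of any removed solute carrier, only on its CT10 and CT14 arrays, the times around that peak. Its rhythm values are therefore given as a description. In the sugar class, slc2a3a, a glucose transporter of neurons, had its peak at CT13.5 with a fold of 1.50 (range 282.8 to 562.7, adjusted p = 0.517, limma). Of the fatty acid transporters, slc27a6 had the lowest p, with a fold of 1.39, intensities of 22.4 to 77.9 and an adjusted p of 0.830 (limma).

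Some transporters of transmitters had large swings in which the arrays of 1 circadian time differed. slc32a1 loads GABA and glycine into synaptic vesicles. Its intensity was 163.9, 119.5, 251.9, 20.3, 37.1 and 9.4 in the first cycle and 84.1, 353.5, 19.3, 315.2, 9.3 and 251.5 in the second. CT2 was thus at 315.2 in the second cycle against 20.3 in the first, CT10 at 251.5 against 9.4, and CT22 at 19.3 against 251.9. The fitted fold was 6.36, the largest of the 117, with the peak at CT18.0 and an adjusted p of 0.619 (limma). Under the alternatives that kept the cosine the fold lay between 2.94 and 19.7, with adjusted p of 0.091 to 0.795 (limma). The 19.7 (adjusted p = 0.091) came without the last 4 arrays, which leaves out the CT22, CT2 and CT10 arrays of the second cycle just given. slc32a1 correlated with the mean of the 10 neuronal markers at r = 0.909.

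The same neuronal markers went with slc1a2b, the glial glutamate transporter of the EAAT2 type (r = 0.844), slc1a4, a neutral amino acid exchanger (r = 0.744), and 1 probe set of slc7a8a, a light chain of large neutral amino acid exchange (r = 0.722). The other probe set of slc7a8a was not among the 10 solute carriers closest to these markers, the last of which had r = 0.506. A correlation of 0.7 or above with these markers was found for 4 of the 117 (3.42%), beside 3.42% of all probe sets. slc1a2b had its highest values, 6118.5 and 5944.3, on the CT18 and CT2 arrays of the second cycle, where all 10 neuronal markers lay above their own means, and 1938 to 4859 on the 10 others. On these same arrays slc18a3a, which loads acetylcholine into vesicles, stood at 126.5 and 66.2, against 8.2 to 32.6 elsewhere. It passed the filter on low values only through these arrays. slc18a3a had r = 0.508 with the neuronal markers and r = 0.7355 with the mean of the 7 measured glial markers. The glial markers also had r = 0.7635 with slc32a1, 0.705 with slc1a2b, 0.597 with that slc7a8a probe set and 0.464 with slc1a4. They summed to 13679 and 10591 on the CT18 and CT2 arrays of the second cycle, against 4351 to 8871 elsewhere. What part the amounts of neuronal and glial RNA had in these values was not tested.

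slc6a11a, a GABA transporter of the cell surface, was at 366.4 on the CT6 array of the second cycle and at 14.2 to 98.9 on the 11 others. Its fold was 3.27 (adjusted p = 0.628, limma) and 2.50 without that array. slc38a5b, another sodium-coupled amino acid transporter of the slc38 family, was at 1082.3 on that array and at 94.9 to 381.9 on the others. slc25a55a and slc25a55b, paralogs of the mitochondrial family, stood there at 763.7 and 185.2, against 218 to 393.1 and 6.3 to 48.5 elsewhere. slc25a55b passed the filter on low values only through that array: no removed solute carrier exceeded 63.8, and its 11 other values lay below that. Its value there and its correlations with the markers are therefore given as a description. The means of the skin markers correlated with slc38a5b at r = 0.946 and with slc25a55b at r = 0.830, those of bone and connective tissue with slc6a11a at r = 0.863 and slc25a55a at r = 0.816, and those of immune cells with slc25a55a at r = 0.833, slc38a5b at r = 0.830 and slc6a11a at r = 0.783. These are the markers whose sums were highest on that array, and their part in the 4 members was not tested. slc25a55a had a rhythm fold of 1.84 with the peak at CT8.12 (adjusted p = 0.429, limma), and 1.52 without that array (adjusted p = 0.338).

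**Figure D4:**
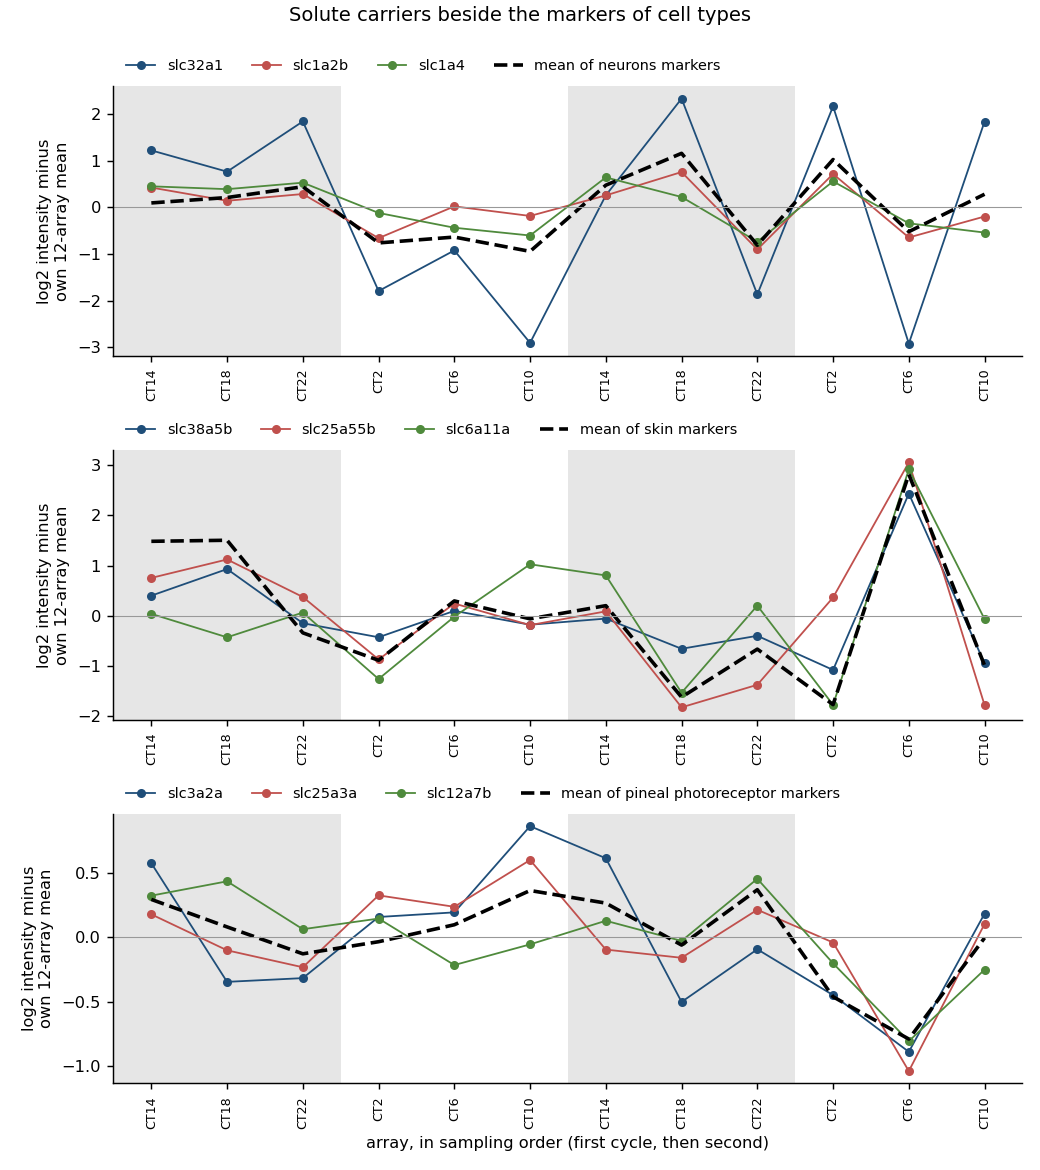
Log2 intensity minus the own mean over 12 arrays, in sampling order, of 9 solute carriers beside the mean of neuronal (top), skin (middle) and pineal photoreceptor markers (bottom, dashed in each), with the former night in grey. slc32a1 and the neuronal markers are high on the CT18 and CT2 arrays of the second cycle, and slc38a5b (1082.3) and the skin markers on its CT6 array.

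The remaining transmitter transporters did not pass the test either. slc1a3a, the glial glutamate transporter GLAST, ranged from 69.1 to 287.3 with a median of 161, a fold of 1.66 and an adjusted p of 0.611 (limma). slc6a17, a vesicular carrier of neutral amino acids in neurons, ranged from 201.3 to 542.1 (fold 1.44, adjusted p = 0.656, limma), with its lowest value on the CT6 array of the second cycle. slc17a5, the lysosomal sialic acid transporter, lay between 142.2 and 256.5 (fold 1.32, adjusted p = 0.720, limma).

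A larger share of solute carriers went with the photoreceptor markers, 9 of 117 (7.69%), beside 3.49% of all probe sets at r of 0.7 or above. The difference was not tested, and the sum of these markers was lowest on the CT6 array of the second cycle. The closest was 1 probe set of slc4a2a, an anion exchanger that sets pH (r = 0.911), at 356.6 on the CT6 array of the second cycle and 463.6 on the CT2 array before it, against 722 to 968 on the 10 others. The next were slc3a2a (r = 0.796), slc25a3a, the mitochondrial phosphate carrier (r = 0.791), 1 probe set of slc31a1, the copper importer (r = 0.782), and slc12a7b (r = 0.765). slc25a3a was at 1541.1 on that CT6 array and at 2691 to 4788 on the others. The other probe sets of slc4a2a had r = -0.0285 and -0.3115 with these markers. The pair for slc37a4a had r = 0.7625 and -0.4384. The first of these is among the 9 and passed the filter on low values only through the CT10 array of the first cycle (69). On that array the mean of the photoreceptor markers was also high, at 0.363 above its own mean (log2). The count of 9 is therefore given as a description. With the other marker lists, a correlation of 0.7 or above was found for 5 of the 117 for skin (4.27%, beside 5.45% of all probe sets) and 5 for immune cells (4.27%, beside 5.51%). It was found for 3 for bone and connective tissue (2.56%, beside 3.45%), 4 for glia (3.42%, beside 3.08%) and 0 for blood and endothelium (0%, beside 0.723%).

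The array that stood apart most also held many of the lowest values. Of the 117 solute carriers, 32 (27.4%) had the lowest of their 12 values on the CT6 array of the second cycle, beside 20% of all probe sets. On the CT14 array of the first cycle 1 had it (0.855%), beside 5.54% of all.

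Other members had a small range over the 48 h. The 5 with the smallest range were slc27a1a, a fatty acid transporter (201.9 to 279.5), slc35f6 (443.1 to 673.6), slc48a1b, a heme transporter (133.2 to 205.7), slc25a26, the mitochondrial carrier of S-adenosylmethionine (138 to 213.5), and slc25a3b (770.4 to 1218). Their folds lay between 1.05 for slc27a1a and 1.37 for slc25a3b. slc25a3b, the paralog of slc25a3a, had its fitted peak at CT5.12, and the copies correlated at only r = 0.307. Its range was small, but its g-factor of 0.542 places it among the members at 0.5 or above (adjusted p = 0.527, limma).

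Where a gene had several tested probe sets, their profiles often differed. Over 10 pairs of probe sets of 1 gene the correlation ranged from -0.402 to 0.900 with a median of -0.049, and the fitted peaks lay within 4 h in 3 pairs. The 3 probe sets of slc4a2a had peaks at CT15.6, CT7.98 and CT1.84, with r between -0.338 and -0.081, and the last of them, with intensities of 66.4 to 252, had the seventh lowest p of all members (fold 2.22, adjusted p = 0.383, limma). The pair for slc37a4a, the glucose-6-phosphate transporter, had peaks at CT2.36 and CT13.5 and r = -0.402, both with no intensity above 69.2. Their adjusted p were 0.503 and 0.578 (limma). No removed solute carrier exceeded 63.8, so both lay close to the filter on low values. The pair for slc25a14, a mitochondrial uncoupling-type carrier, agreed at r = 0.900. The names of these probe sets differ only in their ending, so they may not check each other independently. The next highest r was 0.615, for slc7a8a. Which of several discordant probe sets reports the transcript could not be told from these values, and members with 1 probe set have no such check. Over 8 pairs of probe sets of paralogs the median correlation was 0.240, with the highest for slc3a2a and slc3a2b. Among them slc37a4b was paired with both probe sets of slc37a4a (r = -0.051 and 0.167).

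The daily cycles were compared next, as the second against the first. No solute carrier differed at a false discovery rate of 0.05 in limma, in either direction, and neither did any of the 11624 probe sets (0%). At an unadjusted p under 0.05 there were 13 of the 117 (11.1%), beside 7.16% of all probe sets. Of these 13, 12 were lower (10.3%) and 1 was higher (0.855%) in the second cycle. Of all probe sets, 4.16% were lower and 3% higher at that threshold. Among the 12 are slc27a6 and 1 probe set of slc39a9, which passed the filter on low values only through the first cycle. The second-cycle values of slc27a6 were 22.4 to 53, and no removed solute carrier exceeded 63.8. The count of 12 is therefore given as a description. With no filter, 14 of 159 (8.81%) were lower, beside 3.68% of all. Without the CT6 array of the first cycle the 12 became 6 (5.13%, beside 2.42% of all), and the other arrays left out in turn gave 10 to 15. By sign alone 73 of the 117 (62.4%) were lower, beside 53.9% of all. The median difference was -0.14 on the log2 scale for the solute carriers and -0.03 for all probe sets, and it was -0.03 and 0.03 without further normalization of the deposited values. Leaving out each array in turn gave a median of -0.16 to -0.08 for the solute carriers. The highest came without the CT10 array of the second cycle (-0.08), and it was also -0.08 without its CT6 array and -0.09 without its CT22 array.

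The lowest p belonged to 1 probe set of slc39a9, a zinc importer of the ZIP family. It was at 34, 13.4, 19.2, 17.3, 38.9 and 27.5 in the second cycle, against 69.4, 58.8, 49.7, 59.7, 47.6 and 70.6 in the first. It passed the filter on low values only through the first cycle: no removed solute carrier exceeded 63.8, and all 6 of its second-cycle values lay below that. Its difference of -1.33 ± 0.30 on the log2 scale (SE; adjusted p = 0.627, limma) is therefore given as a description. The other probe set of slc39a9 had 71.9 to 185.4 in the second cycle and 122.3 to 191.8 in the first. slc43a2b, the paralog of slc43a2a, had 48.7 to 86.9 in the second cycle and 93.7 to 136.1 in the first, and slc11a2, an importer of iron and other divalent metals, had 200.9 to 323.9 in the second and 336.5 to 399.1 in the first. In slc43a2b and slc11a2, as in that slc39a9 probe set, the cycles did not overlap, which was also so, with the second cycle below, for 0.215% of all probe sets.

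slc39a7, a zinc transporter that releases zinc from the endoplasmic reticulum, had a difference of -0.58 ± 0.14 for 1 probe set (adjusted p = 0.627, limma). That probe set had 246.4 to 462.1 in the second cycle and 370.3 to 630.4 in the first. The other probe set of slc39a7 went the other way, by 0.14 ± 0.22 (adjusted p = 0.917, limma). It had 68.1 to 104 in the second cycle and 52.3 to 92.5 in the first. The 1 member with a higher value in the second cycle at an unadjusted p under 0.05 was slc22a2, an organic cation transporter. It had 66.6 to 148.3 in the second cycle and 40.5 to 71.7 in the first, a difference of 0.64 ± 0.19 on the log2 scale, with an adjusted p of 0.646 (limma). The last 4 arrays, with their higher hybridization controls, all belong to the second cycle. Without them the second cycle keeps only its CT14 and CT18 arrays, against all times of the first, so its later times are not compared. In that comparison 10 of 126 solute carriers (7.94%) were lower at an unadjusted p under 0.05, beside 4.24% of all. At that threshold 2 were higher (1.59%), beside 3.81% of all. The median difference was -0.07, against 0.02 for all.

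**Figure D5:**
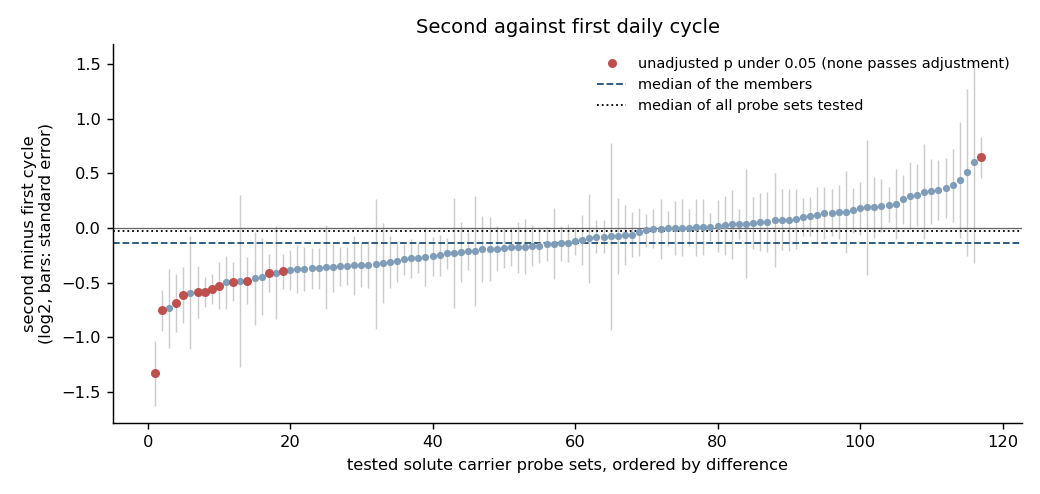
Difference of the second minus the first daily cycle (log2, points, with standard errors as bars) of the 117 tested solute carrier probe sets in rising order. Red points have an unadjusted p under 0.05, 12 below 0 and 1 above, and none passed after adjustment; the dashed line is the median of the 117, -0.14, and the dotted line that of all probe sets, -0.03.

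The shape of the rhythm did not differ between the cycles for any solute carrier at a false discovery rate of 0.05 in limma, nor for any of all probe sets (0%). At an unadjusted p under 0.05 there were 4 of the 117 (3.42%), slc22a31, slc26a10, 1 probe set of slc25a14 and slc25a39, beside 6.51% of all. slc22a31 had a fitted fold of 1.95 in the second cycle and 7.56 in the first, with an adjusted p of 0.750 (limma).

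For comparison, gene groups known for membrane transport outside the SLC families were taken, namely the atp1, atp2 and atp6 genes, the ABC genes and the aquaporins. This choice too goes by name alone, so not every gene in it need encode a pump, channel or transporter. Of 69 probe sets, 59 were tested. None of the 59 passed the rhythm test, and 11 (18.6%) had an unadjusted p under 0.05, beside 12.8% of the solute carriers and 10.1% of all probe sets. More than 1 of these 11 belongs to the same gene, atp1b2a. The median fold of the 59 was 1.41, near that of all probe sets. The lowest p was that of atp1b3a, a beta subunit of the sodium pump, with a fold of 2.12, the peak at CT21.6 and an adjusted p of 0.080 (limma).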

How the data were processed

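The authors deposited signal intensities on a linear scale, each array scaled on its own in GCOS. MAS5 is named too in the submitters' processing notes, and versions are not given in the sources used here. The table has 115 control probe sets, used in normalization and then left out, and no detection calls or scanner files. Symbols came from the platform annotation: 10795 probe sets had 1 symbol, 135 had several and 4572 had none. The rule left out 1 slc24a probe set and 5 with several symbols. The 12 arrays, 2 for each circadian time, limit the precision. The p-values rest on the spread of single pools around each fitted model, moderated over all probe sets. In the comparisons of the cycles, the mean difference between cycles is a term of the model and not part of that spread.

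Quantile normalization was applied to the log2 intensities (limma 3.58.1, R 4.3.3). A probe set was dropped if even its highest value fell within the lowest 25%, and 11624 stayed. The intensities printed are those after normalization. A 24-h cosine and sine were fitted to all 12 arrays (9 residual degrees of freedom), tested by the moderated F with a variance trend and adjusted by Benjamini-Hochberg over all 11624. Folds compare the peak of the fitted curve with its trough. The g-factor is the Fourier power at 24 h over that at all frequencies but the mean. Where arrays were left out, it was taken as the share of the variance that the fitted 24-h curve takes up. On all 12 arrays the measures are equal. The second and first cycles were compared by an added term, and their rhythms by an interaction (6 residual degrees of freedom). The fits were tested on simulated data. Correlations are Pearson's over 12 log2 values. Figures were drawn with matplotlib 3.10.9.

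The members, lists and tests were chosen with earlier results of these data known. Named are slc38a4, members past the rhythm test, the 12 with the lowest rhythm p, the one with the lowest p in each class, their other probe sets and paralogs, the 5 with the lowest p between cycles, members in the study's sequencing list, all transmitter transporters, the 5 with the smallest range, the 10 probe sets most like slc38a4 (1 of them is not reported here) and the 5 largest folds that did not pass. slc38a2, slc38a5b, slc2a3a, slc3a2a, slc3a2b, slc7a8a, slc16a9a, slc16a9b, slc25a3a, slc25a37, slc30a5, slc31a1 and the members named for pairs, interactions and extremes were named after their values were seen. The alternatives were no further normalization, median centring, no filter or one at 50%, an offset of 32, each array or the last 4 left out, the last 4 arrays or the cycle as a block, no variance trend, a false discovery rate of 0.10, circadian time as 6 levels, a g-factor of 0.7 and a linear trend removed. Leaving out the last 4 arrays in the comparison of the cycles was chosen after seeing the data.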

Additional observations from a re-analysis of the deposited data

How the results depend on the processing

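slc38a4 passed the rhythm test as the only solute carrier under all alternatives that kept the cosine, with folds of 3.92 to 5.44 and adjusted p of 0.0047 to 0.032 (limma). Leaving out each array in turn gave 1 solute carrier each time and folds of 4.19 to 5.37, while the count of all probe sets moved between 14 and 105. With circadian time as 6 levels, 0 solute carriers passed (12 of all probe sets), and slc38a4 had an adjusted p of 0.113. This test spends 5 terms on the rhythm instead of 2. Over all probe sets the count of 60 became 29 with median centring, 17 without the variance trend, 101 at a false discovery rate of 0.10 and 133 without the last 4 arrays. The number of solute carriers with a g-factor of 0.5 or above was 14. It ranged from 11 to 25 when each array was left out, with the g-factor taken there as the share of variance of the fitted curve. The 25 (20.7%, beside 14.1% of all) came without the CT6 array of the second cycle, while all probe sets had 1043 to 1637. By the same share of variance the number was 54 of 126 (42.9%, beside 32.6%) without the last 4 arrays, a fit of the same 3 terms to 8 arrays. At 0.7 it was 4 (3.42%, beside 1.71%). No other named member passed in any setting. Neither the comparison of the cycles nor that of their rhythms called a solute carrier under the alternatives run for them: normalization, filter, offset, each array left out, no variance trend and a false discovery rate of 0.10. The cycles were also compared without the last 4 arrays, chosen after seeing the data, with 0 solute carriers and 4 of all probe sets called. That comparison has only the CT14 and CT18 arrays of the second cycle. By median centring the median of all probe sets was -0.10 and that of the solute carriers -0.17 between the cycles, with 28 of 119 (23.5%) lower at an unadjusted p under 0.05, beside 923 (7.94%) of all.

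The replicate numbers stand for the daily cycle. Between any 2 times, the cycle differences of all probe sets had correlations of -0.299 to 0.225, and 5 of the 15 pairs exceeded 0.1. Whether the arrays of a cycle share an effect was not tested, and the main rhythm fit treats the arrays as unpaired. With the cycle as a replicate block, 1 solute carrier was called, slc38a4 with a fold of 4.92 and an adjusted p of 0.011, and 53 of all probe sets.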
